A study of Glycine max with 8 samples.

Results

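Leghemoglobins are the oxygen-binding hemoglobins of legume root nodules, the organs that house nitrogen-fixing rhizobia. They fill the cytosol of the infected cells, where they hold free oxygen low enough for the bacterial nitrogenase to work and still carry oxygen to the respiring bacteroids; their heme gives an active nodule its pink colour. Soybean (Glycine max) carries several near-identical copies. The 4 genes described here were taken from a list of symbiotic leghemoglobin genes, given by identifier: Glyma.10G198800.Wm82.a2.v1, Glyma.10G199000.Wm82.a2.v1 and Glyma.10G199100.Wm82.a2.v1, which carry chromosome 10 and nearby serial numbers in their identifiers, and Glyma.20G191200.Wm82.a2.v1, which carries chromosome 20. All 4 had a row among the 43517 genes of the count table, and all 4 were among the 29508 genes tested. The annotation suffix is left off below.

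Nodule RNA was sequenced from soybean plants under 2 treatments that shared low nitrogen and inoculation with the strain labelled Bra.Q2. Group BR had also received the strain labelled Bac.B, and group R had received Bra.Q2 alone. Each group held 4 libraries, numbered BR1 to BR4 with Bac.B and R1 to R4 without it; library totals ranged from 15133989 to 17287964 counts in BR and from 14223489 to 15266510 in R. The labels used here give neither plant age nor cultivar and name no batch. They are silent on whether each library is a plant of its own, so the p-values reflect only library-to-library spread, part of which may be technical. A nodule is a mixed organ, and in such bulk RNA fewer infected cells and less leghemoglobin RNA per infected cell cannot be told apart.

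The files do not pair the identifiers with names, and the RefSeq gene table of assembly Glycine_max_v4.0 matched 0 of the 43517 identifiers. That table holds 5 genes with leghemoglobin symbols, of which 4 stand in adjacent rows on chromosome 10 and 1 stands on chromosome 20; 1 of those on chromosome 10 is a pseudogene. No isoform name was therefore given to any of the 4 identifiers, and no coordinates are printed. Reads that fit several copies may have been split or dropped by the counting, so the division of reads among the copies carries an uncertainty that the replicate error does not show.

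Leghemoglobin RNA is itself the defining marker of infected nodule tissue, and the 4 genes were among the most abundant transcripts in every library. Their levels are given in FPKM (fragments scaled to gene length and to the library total), the only scale here on which genes of different length can be compared. Across the 8 libraries the 4 genes ranged from 10033 to 44200 FPKM, and none ranked below place 7 of all genes by FPKM or below place 8 by counts. Together they took 7.51%, 5.19%, 6.41% and 7.42% of all counts in BR1 to BR4. In R1 to R4 they took 7.89%, 5.57%, 5.30% and 5.38%. In R, R1 stood apart above the other R libraries and above every BR library, while R2, R3 and R4 lay within the BR range.

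**Figure D1:**
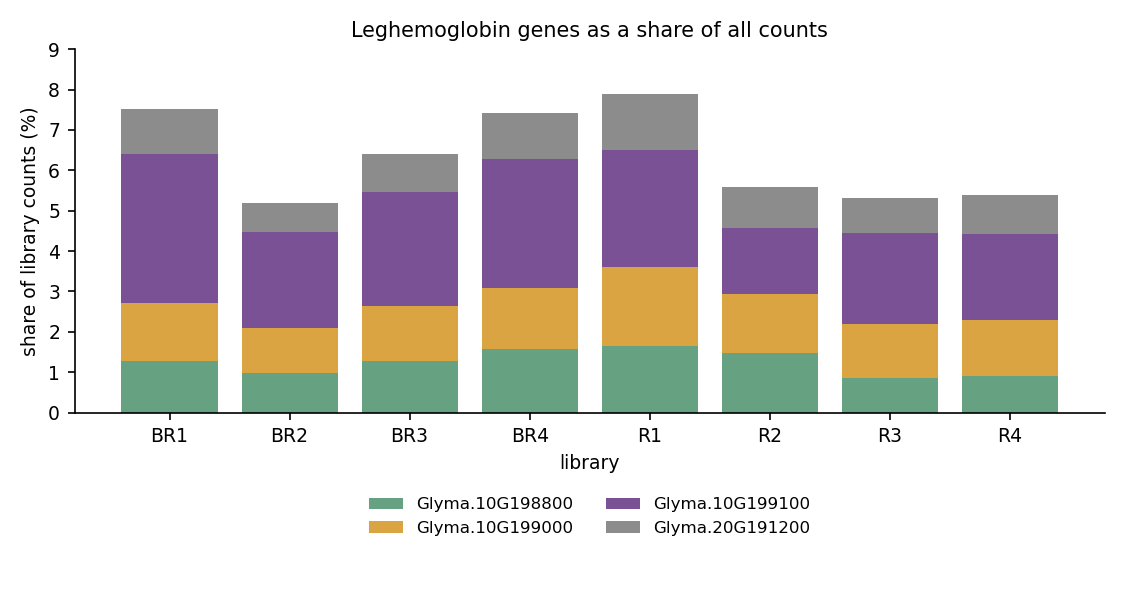
Share of all counts in each library, in percent, taken by each of the 4 leghemoglobin genes, stacked, for the 4 BR and the 4 R libraries. The stacks reach from 5.19% to 7.51% in BR and from 5.30% to 7.89% in R, and Glyma.10G199100 is the largest block in every library.

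The family sum averaged 6.63% ± 1.08 of the library in BR, against 6.04% ± 1.24 in R (SD, n = 4 each), a difference of 0.59 percentage points that is smaller than either SD. No test was made on the sum, since the genes were listed with results of these data known. The sign of that difference depended on the scaling: as TMM-scaled CPM (counts brought to equal library size, with a factor for composition) the family sum averaged 62151 ± 10461 in BR and 64878 ± 14531 in R, a ratio of 0.958, whereas as a share of raw counts the ratio was 1.10. The median log2 fold change of all tested genes moved the same way, from -0.02 with TMM to 0.178 with library totals alone. The family difference depended on single libraries as well. The difference in share of counts was 1.21 points without R1, 1.07 without BR2, 0.30 without BR1 and 0.33 without BR4, and it was 1.29 points without R1 and R2 but -0.10 without R3 and R4. By copy, the 0.59 points were made up of 0.81 from Glyma.10G199100 and 0.06 from Glyma.10G198800, less 0.20 from Glyma.10G199000 and 0.08 from Glyma.20G191200.

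Glyma.10G199100 was the most abundant copy. It had 44200, 28523, 33422 and 38231 FPKM in BR1 to BR4, against 34464, 19315, 26778 and 25225 FPKM in R1 to R4. The groups overlapped: R1 lay above BR2 and BR3, and 3 of the 4 R libraries lay below the lowest BR library. Its mean was 36094 ± 6702 FPKM in BR and 26446 ± 6238 FPKM in R (SD, n = 4 each), a ratio of 1.36. On the TMM scale the ratio of means was 1.19. There R1, at 31702 CPM, lay above BR4 as well, at 29871, and 2 of the 4 R libraries lay below the lowest BR library. With TMM scaling the log2 fold change of BR over R was 0.25, with an SE of 0.25 and a 95% interval from -0.30 to 0.81 (quasi-likelihood test of edgeR, p adjusted over all tested genes = 0.506).

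Glyma.10G199000 was the copy with the most uniform levels. It had 20207, 15474, 19242 and 21164 FPKM in BR1 to BR4, against 27517, 20897, 18900 and 19812 FPKM in R1 to R4. On this scale, which is relative to library totals, the groups overlapped, with R1 above all other libraries and BR2 below all others. On the TMM scale they did not: the gene had 10357 to 13974 CPM in BR and 14117 to 21389 CPM in R, so that the lowest R library lay just above the highest BR library. Its log2 fold change was -0.39, with an SE of 0.21 and a 95% interval from -0.86 to 0.08 (edgeR adjusted p = 0.220). It was the only copy of the 4 whose groups did not overlap on the TMM scale, where 24.5% of all tested genes were without overlap.

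Glyma.10G198800 was the copy that varied most among the R libraries. It had 18441, 14381, 18676 and 22862 FPKM in BR1 to BR4, against 24115, 21315, 12536 and 13054 FPKM in R1 to R4. In FPKM, R1 was above every BR library and R2 above all of them but BR4, whereas R3 and R4 were below every BR library. On the TMM scale R2, at 15696 CPM, was above BR4 too, at 14648. There R4, at 9585 CPM, lay just above BR2, at 9340, and R3 alone was below every BR library. The log2 fold change was -0.13, with an SE of 0.27 and a 95% interval from -0.74 to 0.48 (edgeR adjusted p = 0.764). Its sign turned on the R libraries, since it was 0.08 without R1, 0.37 without R1 and R2, and -0.48 without R3 and R4. It was 0.07 with library totals as the only scaling, which moved the median of all genes to 0.178, so that relative to that median the gene stood at -0.11, much as with TMM (-0.12).

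Glyma.20G191200, on chromosome 20, was the least abundant copy in 7 of the 8 libraries. It had 15516, 10033, 13459 and 16113 FPKM in BR1 to BR4, against 19670, 14203, 12049 and 13600 FPKM in R1 to R4. In FPKM, R1 was the highest of all libraries and BR2 the lowest, and the other R libraries lay within the BR range. On the TMM scale R2, at 10764 CPM, also lay just above the highest BR library, BR4 at 10624. The log2 fold change was -0.31, with an SE of 0.24 and a 95% interval from -0.84 to 0.22 (edgeR adjusted p = 0.388).

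**Figure D2:**
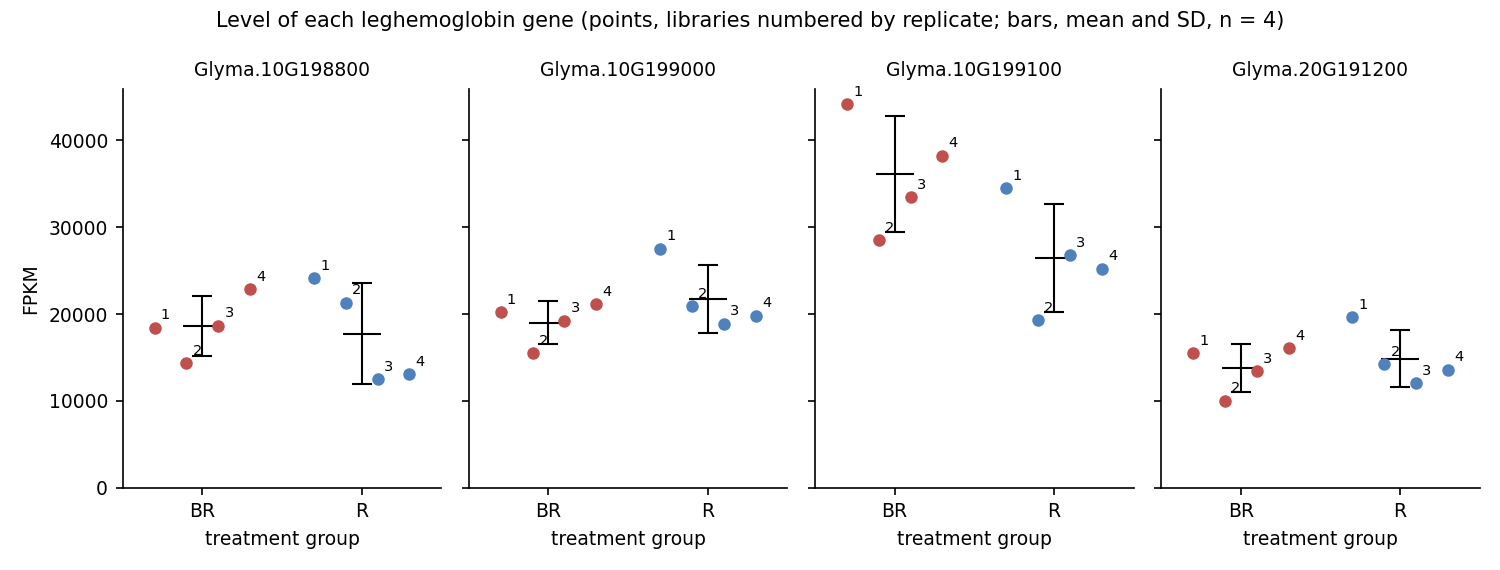
Level of each leghemoglobin gene in FPKM for groups BR and R; points are libraries with their replicate number, and bars are the mean and SD of 4 libraries. The groups overlap for every gene on this scale, and Glyma.10G198800 splits the R libraries into R1 and R2 at 24115 and 21315 FPKM and R3 and R4 at 12536 and 13054 FPKM.

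None of the 4 genes passed the test. Adjusted over all genes, 0 of 4 were called by edgeR, DESeq2 and limma-voom, against 18.3% of all tested genes called by edgeR and 29.4% of the 1531 genes that averaged over 100 CPM. At an unadjusted p below 0.05 the count was 0 of 4 by edgeR, where 34.1% of all tested genes passed, and 0 of 4 by limma-voom, where 34.7% passed. By DESeq2 it was 1 of 4, where 28% passed, so that this count is near the background. The gene was Glyma.10G199000, whose adjusted p in DESeq2 was 0.111. With only 4 genes, the counts of 0 are no clear departure from the shares beside them either. They are not read as unusual stability of the family. The 95% intervals of the main edgeR fit nevertheless bound the changes. In terms of fold, BR over R, they ran from 0.811 to 1.75 for Glyma.10G199100, from 0.549 to 1.06 for Glyma.10G199000, from 0.597 to 1.39 for Glyma.10G198800 and from 0.559 to 1.17 for Glyma.20G191200. A change of 2-fold in either direction lay outside all 4 intervals of that fit, but not in every alternative. The interval reached 2-fold without R3 and R4 for Glyma.10G199000 (log2 -1.12 at its lower end), Glyma.10G198800 (-1.07) and Glyma.20G191200 (-1.13). It also did so for Glyma.10G199000 without R3 (-1.01), and for Glyma.10G199100 without R1 (1.01 at its upper end) and in the 3 fits on FPKM (up to 1.32). Counting error was not the limit: each value rested on at least 121339 counts, for which counting error alone is at most 0.287%, and the 95% Wilson interval of a gene's share of counts was at most 0.0095 percentage points to either side.

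The scaling moved all genes together. The median fold change over all tested genes was higher than with TMM by 0.11 (log2) under upper-quartile scaling and by 0.19 under library totals alone. The 4 genes shifted with that median. Set against it, Glyma.10G199100 stood at 0.27 on the log2 scale with TMM, RLE, upper-quartile and library-total scaling alike, Glyma.10G199000 at -0.38 to -0.37, Glyma.20G191200 at -0.30 to -0.29 and Glyma.10G198800 at -0.13 to -0.11. A scaling factor acts alike on all genes of a library. The order of the 4 genes by fold change was therefore the same under these 4 scalings, which is no separate evidence for that order.

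**Figure D3:**
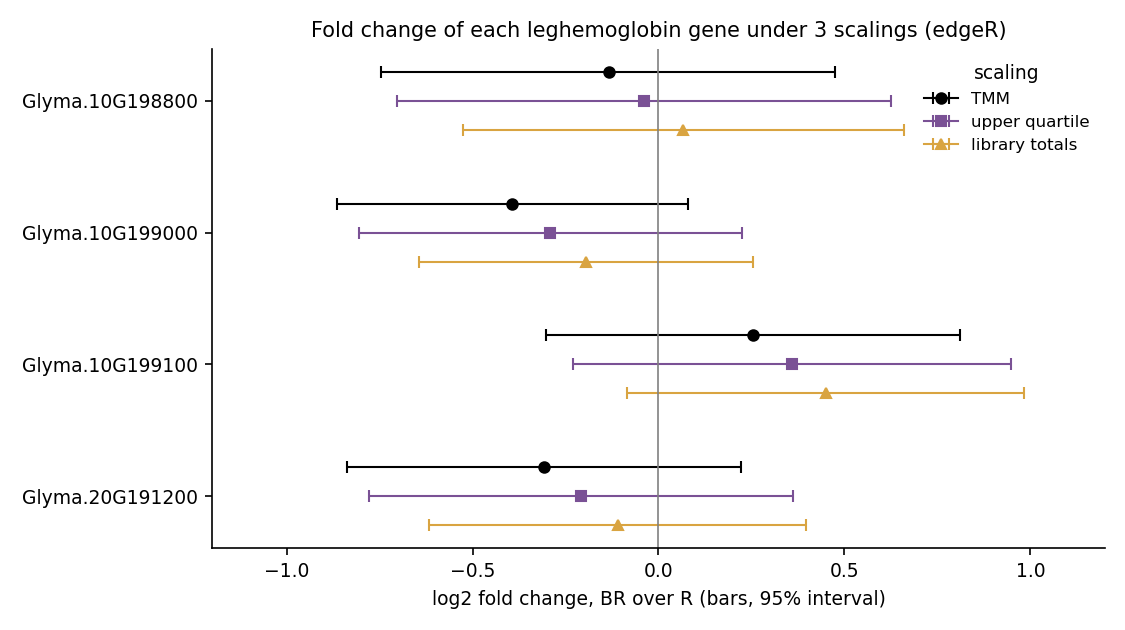
Log2 fold change of BR over R for each leghemoglobin gene with its 95% interval in the edgeR fit, under TMM, upper-quartile and library-total scaling. Every interval includes 0, the intervals lie within -1 and 1, and the estimates of all 4 genes move to the right together from TMM to library totals.

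The copies were not in a fixed proportion to each other. Glyma.10G199100 held 44.9%, 41.7%, 39.4% and 38.9% of the summed FPKM of the 4 genes in BR1 to BR4, against 32.6%, 25.5%, 38.1% and 35.2% in R1 to R4, and all BR libraries lay above all R libraries. That separation was narrow, with BR4 at 38.9% against R3 at 38.1%, a gap smaller than the range within either group. Glyma.10G199000 held 20.5%, 22.6%, 22.7% and 21.5% in BR1 to BR4, against 26.0%, 27.6%, 26.9% and 27.6% in R1 to R4. Here the BR libraries lay below the R libraries, with a gap of 3.33 points between the groups, against a range of 2.15 points within BR and 1.62 within R.

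Glyma.20G191200 held 15.8%, 14.7%, 15.9% and 16.4% of the summed FPKM in BR1 to BR4, against 18.6%, 18.8%, 17.1% and 19.0% in R1 to R4, again lower in every BR library. Here too the gap, from BR4 at 16.4% to R3 at 17.1%, was smaller than the range within either group. Glyma.10G198800 held 18.7% to 23.2% in BR and 17.8% to 28.1% in R, and the groups overlapped. Since the 4 shares add up to the whole family, a higher share of 1 copy lowers the others. They were set side by side after their values had been seen, and are given as a description with no test. How often shares within other gene families separate the groups was not counted.

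**Figure D4:**
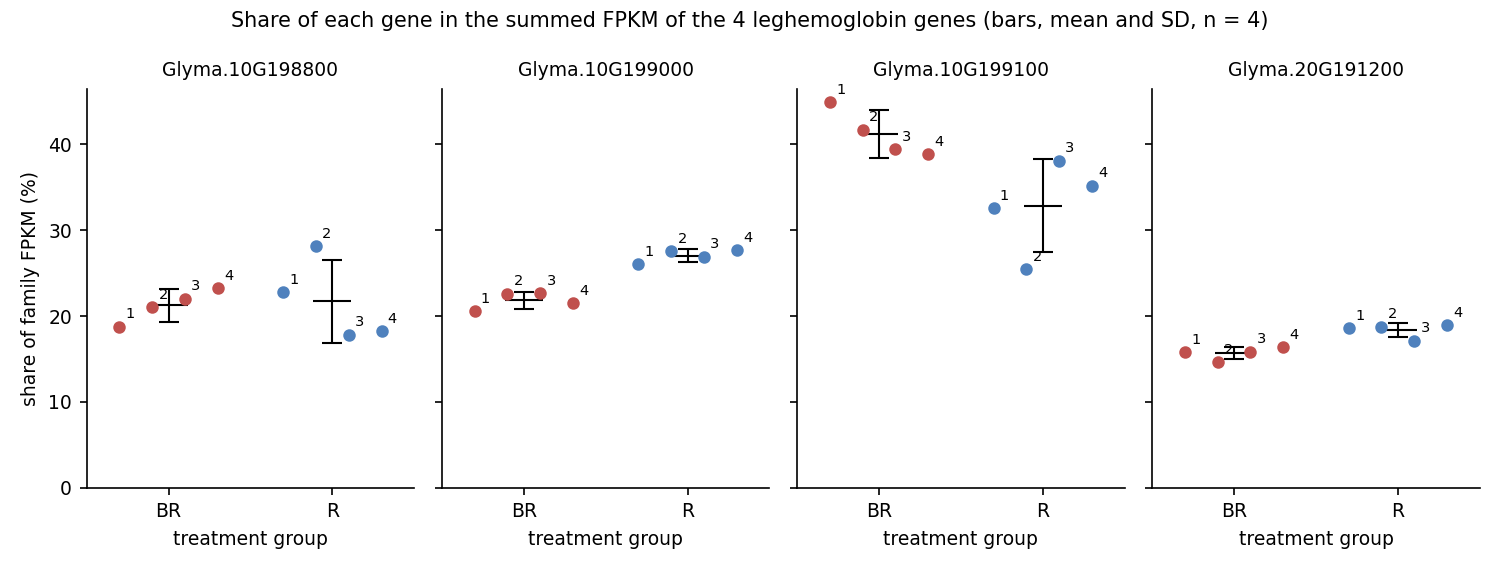
Share of each gene in the summed FPKM of the 4 leghemoglobin genes, in percent, for groups BR and R; points are libraries with their replicate number, and bars are the mean and SD of 4 libraries. Glyma.10G199100 has the higher shares in BR (38.9% to 44.9% against 25.5% to 38.1%), Glyma.10G199000 and Glyma.20G191200 the lower ones, and Glyma.10G198800 overlaps.

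A single ratio was tested, that of the chromosome 20 copy to the sum of the 3 chromosome 10 copies, which depends on neither depth nor scaling. Like the genes, it was chosen with earlier results of these data known, so its p describes the separation of these 8 libraries and is no independent evidence. In counts it was 0.171, 0.159, 0.175 and 0.182 in BR1 to BR4, against 0.214, 0.220, 0.192 and 0.218 in R1 to R4. All 4 BR libraries lay below all 4 R libraries. The log2 ratio averaged -2.54 ± 0.08 in BR and -2.25 ± 0.09 in R (SD, n = 4 each), a difference of -0.30 in an exact two-sided permutation test with p = 0.0286, which is the lowest value this design allows. With 1 library left out the difference stayed between -0.34 and -0.26, where the smallest reachable exact permutation p is 0.0571. Of the chromosome 10 copies taken singly, only Glyma.10G199100 had a ratio to the chromosome 20 copy without overlap between the groups. The separation is therefore not one shared by all chromosome 10 copies.

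Pairwise, the ratio of Glyma.10G199100 to Glyma.20G191200 in FPKM was 2.85, 2.84, 2.48 and 2.37 in BR1 to BR4, against 1.75, 1.36, 2.22 and 1.85 in R1 to R4. The ratio of Glyma.10G199000 to Glyma.10G199100 was 0.457 to 0.576 in BR and 0.706 to 1.08 in R. Neither ratio overlapped between the groups. By contrast, the ratio of Glyma.10G199000 to Glyma.20G191200 was 1.30 to 1.54 in BR and 1.40 to 1.57 in R, with overlap. The 3 ratios that involve Glyma.10G198800 overlapped too, and its ratio to Glyma.10G199000 was 0.876 and 1.02 in R1 and R2 but 0.663 and 0.659 in R3 and R4, against 0.913 to 1.08 in BR. The copies on the same chromosome were thus not those with the steadiest ratio. How often ratios among other genes separate the groups was not counted. For single genes on the TMM scale, 24.5% of all tested genes were without overlap.

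The order of the copies by FPKM differed in few libraries. Glyma.10G199100 was the highest of all genes in 7 of the 8 libraries, and in R2 it came behind Glyma.10G198800 and Glyma.10G199000, at 19315 against 21315 and 20897 FPKM. Glyma.10G199000 and then Glyma.10G198800 followed it in BR1, BR2, BR3, R1 and R3. They changed places in BR4, where Glyma.10G198800 had 22862 FPKM and Glyma.10G199000 had 21164. Glyma.20G191200 was last except in R4, where it had 13600 FPKM and Glyma.10G198800 had 13054. Within libraries, Glyma.20G191200 was below Glyma.10G199000 and Glyma.10G199100 in all 8, and it was last in every BR library. Between the libraries of a group, only the first place of Glyma.10G199100 in BR was clear of the spread. Its lowest BR library, at 28523 FPKM, lay above the highest BR library of any other copy, at 22862. In R the levels of neighbouring copies in the order overlapped.

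The spread between libraries was of ordinary size for abundant genes, except in 1 case. On the TMM scale the coefficients of variation of the 4 genes ranged from 13.1% to 20.2% in BR, and from 19.8% to 34.3% in R. The medians were 16.0% in BR and 18.7% in R over the same 1531 abundant genes. Glyma.10G199000 was the steadiest, at 13.1% in BR and 19.8% in R. Glyma.10G198800 reached 34.3% in R, above 84.0% of those genes, and 18.1% in BR, above 57.5% of them. The family sum had 16.8% in BR and 22.4% in R.

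How closely genes followed each other was measured as the SD over the 8 libraries of the log2 ratio of their TMM-scaled CPM, a measure that also favours genes with steady levels. The copies Glyma.10G199000 and Glyma.20G191200 followed each other most closely, with an SD of 0.0973 where each alone varied with an SD of 0.299 and 0.337. Among 8573 genes averaging 20 CPM or more, Glyma.20G191200 took place 2 in closeness to Glyma.10G199000, and Glyma.10G199000 took place 3 in closeness to Glyma.20G191200. Glyma.10G199100 followed none of the other copies closely. Its SDs against them were 0.371 to 0.436, more than its own SD of 0.330, and 2101 genes were closer to it than any other copy was.

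The genes closest to the family sum by the same measure, members left out, were Glyma.15G025200 (SD 0.0913), Glyma.19G074000 (0.0931), Glyma.08G330400 (0.0994) and Glyma.10G203200 (0.101), of 8570 genes compared; the median gene had 0.423 and the family sum itself varied with an SD of 0.256. The most abundant of them, Glyma.19G074000, had 1764, 1355, 1719 and 1939 TMM-scaled CPM in BR1 to BR4, against 2476, 1774, 1604 and 1736 in R1 to R4. Their likeness to the sum, which includes its small difference between the groups, was the ground for naming them. The files hold no names for these 4 identifiers, and a likeness picked from so many genes over 8 libraries says nothing of shared function.

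High expression ended at the edge of both loci. The 5 tested genes to either side of each locus in identifier order, 20 in all, had 0.913 to 55.5 FPKM in any library, and the lowest leghemoglobin value was 181 times the highest of these. No tested gene lay between the chromosome 10 copies. Of the 20 flanking genes, 0 were higher in BR and 3 were lower by edgeR, against 7.98% and 10.3% of all tested genes, and their median log2 fold change was -0.11 against -0.02 over all tested genes. For so few genes, neither count is a clear departure from those shares.

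The flanking gene with the largest change was the neighbour of Glyma.10G198800. Glyma.10G198700, singled out after its value was seen, had 57, 227, 150 and 116 counts in BR1 to BR4, against 430, 294, 728 and 428 counts in R1 to R4. Every BR library lay below every R library, where 24.5% of all tested genes were without overlap on the TMM scale. Glyma.10G198700 fell in BR by 2.15 on the log2 scale, with an SE of 0.38 (edgeR adjusted p = 0.00621), while the leghemoglobin gene beside it had a log2 fold change of -0.13. On the other side of the locus Glyma.10G199500, likewise named after its value was seen, fell by 0.80 on the log2 scale with an SE of 0.16 (edgeR adjusted p = 0.00894). The remaining called gene was the fifth after the chromosome 20 copy, which fell by 0.71 with an SE of 0.19 (edgeR adjusted p = 0.0273). None of the sources used here states what these genes do.

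**Figure D5:**
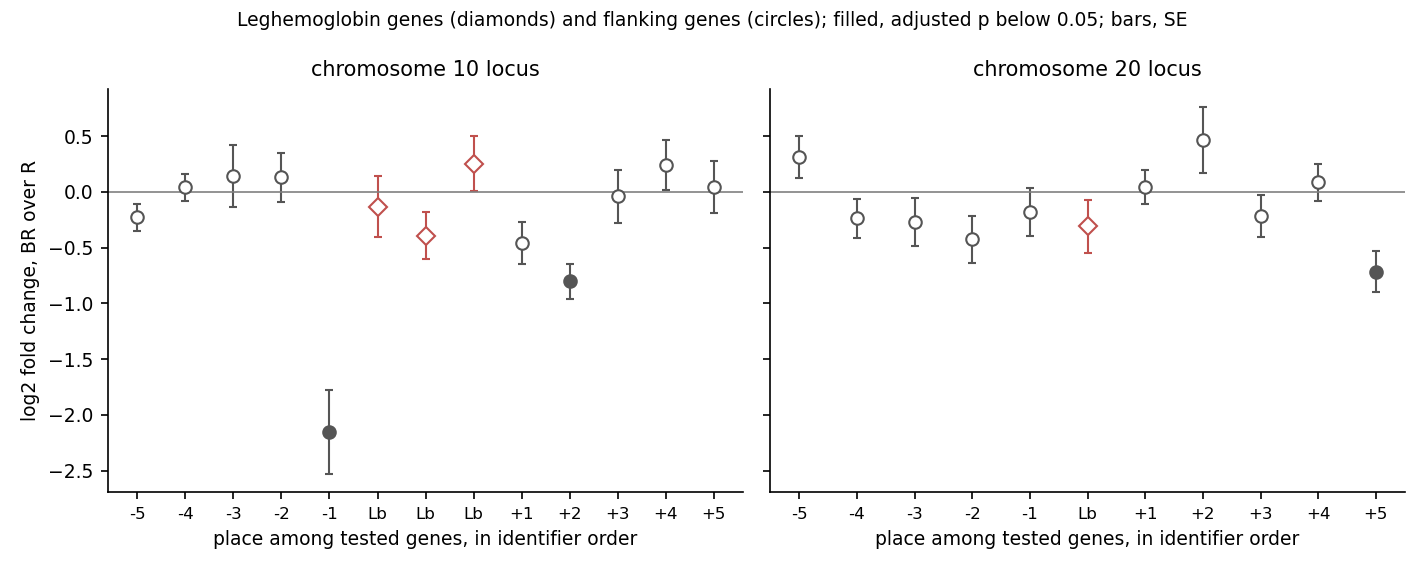
Log2 fold change of BR over R, with SE, for the leghemoglobin genes (diamonds) and the 5 tested genes to either side of each locus in identifier order (circles); filled symbols passed an adjusted p below 0.05. The 4 diamonds lie between -0.39 and 0.25 and are open, while the gene directly before the chromosome 10 copies lies at -2.15.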

How the data were processed

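Per the labels' protocols, nodule RNA came from a Trizol extraction and was prepared for Illumina sequencing with a VAHTS kit. The authors deposited raw read counts per gene and FPKM, 1 column per library. The submitters' processing notes list HTSeq 0.6.0, HISAT2 2.1.0, Bowtie2 2.2.3, CASAVA and TopHat2, with no role or order; strandedness and genome build are not given in the sources used here. Counts, FPKM and totals gave a single length for each of the 39910 genes in the FPKM table (within 0.1%): 688, 709 and 839 bases for the chromosome 10 copies in identifier order and 708 for the chromosome 20 copy.

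Counts were tested with edgeR 4.0.16 in R 4.3.3: filterByExpr (minimum count 10, minimum total 15), TMM, the quasi-likelihood F test of BR against R without covariates, and Benjamini-Hochberg adjustment over 29508 genes, with 0.05 as the threshold. The SE of a log2 fold change is its size over the root of F, and intervals use the t quantile of the fit. Alternatives were DESeq2 1.42.0, limma 3.58.1 on counts (voom) and on log2(FPKM + 1) or log2(FPKM + 0.1), other scalings and filters, a replicate block and libraries left out. Exact permutation tests used scipy 1.17.1. Intervals on counts cover counting error only.

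The members, gene lists and tests were chosen with earlier results of these data known. Named genes were the 4 members, the 4 genes most like the family sum, and flanking genes as stated. Lists of hemoglobin, heme and nodulin genes rest on gene descriptions and could not be applied, as no identifier matched.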

Additional observations from a re-analysis of the deposited data

Results flagged for a closer look

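Over the 4 genes, their shares, the family sum and the chromosome 20 ratio, 22 groups of 4 libraries were searched for a library far from the other 3; chance gives about 1 in 20. In R, R1 stood apart for the family sum, at 7.89% of library counts where R2, R3 and R4 had 5.30% to 5.57%, and at 86549 TMM-scaled CPM where they had 55858 to 59664. These 2 flags are the same reads on 2 scales, and so few among 22 groups are near what chance gives. R1 was the highest R library for each of the 4 genes. No BR library stood apart in these measures.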

How the results depend on the processing

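None of the 4 genes was called in any of 22 alternative settings, with the lowest adjusted p at 0.111 (DESeq2, Glyma.10G199000). Glyma.10G199000 (log2 fold change -0.54 to -0.19), Glyma.10G199100 (0.13 to 0.46) and Glyma.20G191200 (-0.49 to -0.06) kept their sign in all 22. The estimate for Glyma.10G198800 changed sign in 6. In 4 of these, at 0.067 with library totals alone and 0.11 with each of the 3 FPKM settings, the median of all genes moved up by 0.15 to 0.21 as well and the gene stayed below that median; relative to the median the sign changed in 2, at 0.37 without R1 and R2 and at 0.081 without R1 (-0.28 to 0.081 with 1 library left out). The 95% intervals reached 2-fold in 1 alternative for Glyma.10G198800 and Glyma.20G191200 each, in 2 for Glyma.10G199000 and in 4 for Glyma.10G199100. Taking the leghemoglobin rows out of the scaling moved no estimate at 2 decimals. The count of called genes was 2848 to 7333 with 1 library left out, 10237 without R1 and R2 and 3554 without R3 and R4, against 5409. Fewer libraries enter each, yet the count rose to 7333 without R2 and to 10237 without R1 and R2. What made it rise there was not tested. The difference in the chromosome 20 ratio was -0.34 to -0.26 with 1 library left out, -0.25 without R1 and R2 and -0.34 without R3 and R4 (exact permutation p of 0.0571, 0.133 and 0.133, in each case with too few libraries to pass), and unchanged in sign with FPKM. With the replicate block 0 of the 4 genes were called and the ratio differed by -0.30 (exact sign-flip permutation p = 0.125, the smallest possible). Same-numbered libraries had deviations from their group means that correlated at 0.065, 0.086, -0.084 and 0.09, so the numbers were not taken as pairs; the block gave 4633 calls. Depth does not limit these values.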
